A study of Mus musculus with 4 samples.

Results

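The genes described here encode components of microfibrils, which make up the ciliary zonule that suspends the lens, and of elastic fibers. The 10 genes were chosen by symbol from the 14924 genes of the expression table, and all 10 were found there. They are the fibrillins *Fbn1* and *Fbn2*, the microfibril-associated genes *Mfap2* and *Ltbp2*, the fibulins *Efemp1*, *Fbln1*, *Fbln2* and *Fbln5*, elastin (*Eln*) and lysyl oxidase (*Lox*). RNA was sequenced from whole lenses of mice that were 30 days old. The study compared 2 libraries of lenses from an *S100A4* null strain (*S100A4*-/-) with 2 libraries of lenses from wild type (WT) littermates. All mice were on a C57BL/6 background, given as C57BL/6J in the study's methods. No other allele or agent is named for either group, and each library pooled 6 to 12 lenses. Because lenses were pooled and taken whole, and no promoter or Cre that would limit the null allele to a cell type is described, neither single animals nor the cells of the lens can be told apart in these data. The libraries held 81602367 and 74108017 reads in *S100A4*-/- and 70253985 and 68038158 reads in WT.

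Microfibrils are long beaded filaments whose backbone is fibrillin. In the eye they run from the ciliary body to the lens capsule, and the nonpigmented ciliary epithelium is known as a main source of zonular fibrillin. In elastic tissues microfibrils also form the scaffold on which elastin is laid down, with fibulins guiding its assembly and lysyl oxidases crosslinking it. The zonule itself is rich in microfibrils and poor in elastin. Inherited defects of fibrillin-1 or of LTBP-2 are known to disturb the position or shape of the lens.

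Values are normalized read counts, that is, the reads counted on a gene divided by a size factor for the library, so that 1 read was worth between 0.856 and 1.09. A gene was called changed with at least a 2-fold difference and an adjusted p of at most 0.05 in limma, with Benjamini-Hochberg adjustment over all 14780 genes tested. The targeted gene was checked first. *S100a4* (chromosome 3, 90603771 to 90606045, plus strand, GRCm38) had values of 14.6 and 18.2 in *S100A4*-/- against 14420 and 14385 in WT (log2 fold change -9.70, SE 0.10, limma adjusted p = 6.42e-41). The libraries thus matched their labels. The lens was also recognizable from its markers: the 7 lens fiber genes listed, among them genes for beaded filament and gap junction proteins and a nuclease of fiber cells, summed to 1.71e+06 and 1.76e+06 in *S100A4*-/- and to 1.83e+06 in both WT libraries. *Bfsp1*, which encodes the beaded filament protein filensin, had the highest mean of them in each group. Per length of exon *Mip*, another of the 7, was higher than *Bfsp1* in every library. None of the 7 passed the threshold, and the same held for the 4 lens epithelium genes. Of these *Pax6*, for a transcription factor of eye development, had the highest normalized read counts. Per length of exon *Foxe3* was higher than *Pax6* in every library.

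Of the 10 microfibril and elastic fiber genes, 8 were higher in *S100A4*-/- lenses past the threshold, none was lower, and *Mfap2* and *Lox* did not pass. The background was 3.65% of all genes tested called higher and 0.0744% called lower. The 8 genes that rose lay between log2 fold changes of 1.70 and 2.19, with a median of 2.00. Over all 10 genes the median was 1.89, against -0.005 over all genes tested. In 9 of the 10 both *S100A4*-/- values exceeded both WT values, an arrangement found in 23.7% of all genes tested. The summed value of the 10 genes was 11533 and 10958 in *S100A4*-/- against 3981 and 4685 in WT. DESeq2 and edgeR, run on the recovered reads, called the same 8 genes higher, where they called 2.82% and 3.74% of all genes higher. In pools of whole lenses, more cells of a type and more RNA per cell cannot be told apart. With 2 libraries per group, an exact permutation test of a single gene cannot go below p = 0.333, so the calls rest on the spread that limma shares across genes. Without limma's trend of variance with expression, 2 of the 8 passed, *Efemp1* and *Fbln1*.

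**Figure D1:**
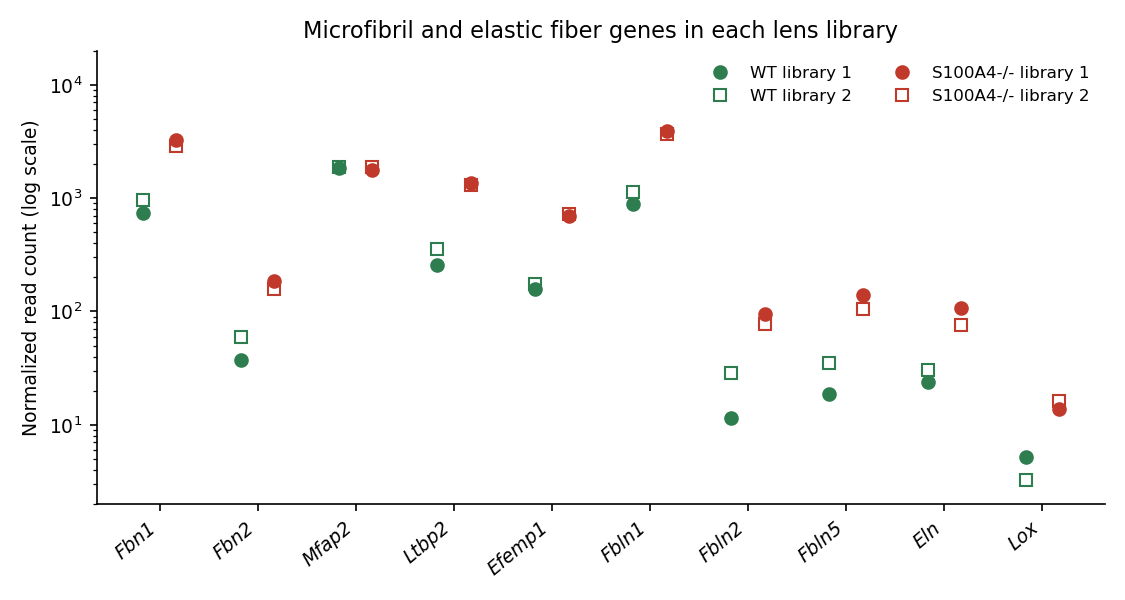
Normalized read count (log scale) of the 10 genes in each of the 4 lens libraries, with WT in green, *S100A4*-/- in red, filled circles for library 1 and open squares for library 2. The red and green points are separated for every gene but *Mfap2*, whose 4 values lie between 1768 and 1892.

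*Fbn1* (ENSMUSG00000027204, chromosome 2, 125300594 to 125507993, minus strand) encodes fibrillin-1, the backbone protein of the zonule. Its values were 3258 and 2890.5 in *S100A4*-/- and 734 and 966 in WT. The groups did not overlap, and the lower *S100A4*-/- library was well above the higher WT library. The means were 3074 ± 259.6 and 849.9 ± 164 (SD, n = 2 each), a log2 fold change of 1.86 (SE 0.08, limma adjusted p = 3.31e-20). *Fbn2* (ENSMUSG00000024598, chromosome 18, 58008623 to 58210487, minus strand) encodes fibrillin-2, which is known mainly from developing tissue. Its values were 188 and 157 in *S100A4*-/- and 37.6 and 59.1 in WT, with no overlap. The log2 fold change of *Fbn2* was 1.84 (SE 0.23, limma adjusted p = 9.62e-08), close to that of *Fbn1*, though it rested on 36 and 54 reads in WT. Per length of exon, *Fbn2* stood at 0.0528 and 0.0499 of the level of *Fbn1* in the *S100A4*-/- libraries and at 0.0470 and 0.0562 in the WT libraries. The proportion of the fibrillins to each other was therefore about the same in all 4 libraries.

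*Ltbp2* (ENSMUSG00000002020, chromosome 12, 84783212 to 84876532, minus strand) encodes a fibrillin-binding protein of the latent TGF-β binding family that associates with zonular microfibrils. It had values of 1362 and 1313 in *S100A4*-/- against 257 and 353 in WT. The groups did not overlap, with means of 1338 ± 34.6 and 305 ± 67.7 (SD, n = 2 each). The log2 fold change was 2.15 (SE 0.10, limma adjusted p = 4.08e-19).

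*Mfap2* (ENSMUSG00000060572, chromosome 4, 141010418 to 141015984, plus strand) encodes MAGP-1, a small glycoprotein bound to fibrillin in microfibrils. Unlike the other abundant genes of the set it did not separate the groups, with values of 1768 and 1887 in *S100A4*-/- and 1845 and 1892 in WT. The groups overlapped, and the log2 fold change was -0.03 with a 95% interval of -0.16 to 0.09 (limma adjusted p = 0.850). This interval does not reach a 2-fold change in either direction. Per length of exon, *Mfap2* exceeded *Fbn1* by 5.43 and 6.54 times in the *S100A4*-/- libraries and by 25.2 and 19.6 times in the WT libraries. The microfibril genes of the lens libraries thus changed in their proportions, with *Mfap2* level and *Fbn1*, *Fbn2* and *Ltbp2* higher.

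Among the fibulins, calcium-binding matrix proteins with repeated EGF-like domains, the 4 genes of the set rose, while none of 4 further fibulin family genes (*Efemp2*, *Fbln7*, *Hmcn1* and *Hmcn2*) passed. *Fbln1* (ENSMUSG00000006369, chromosome 15, 85205949 to 85286535, plus strand), whose product fibulin-1 is found in elastic fibers and basement membranes, had the highest values of the 10 genes in *S100A4*-/-. They were 3906 and 3709 in *S100A4*-/- and 889.6 and 1144 in WT, a log2 fold change of 1.91 (SE 0.07, limma adjusted p = 7.47e-22). *Efemp1* (ENSMUSG00000020467, chromosome 11, 28853204 to 28926743, plus strand) encodes fibulin-3. Its values were 695 and 726 in *S100A4*-/- against 159 and 174 in WT. Replicates of each group were close, with SDs of 22.03 around 710.1 and of 10.9 around 166. The log2 fold change of *Efemp1* was 2.09 (SE 0.11, limma adjusted p = 2.44e-17).

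The other two fibulins were much lower. *Fbln5* (ENSMUSG00000021186, chromosome 12, 101746565 to 101819055, minus strand) encodes fibulin-5, a protein required for elastic fiber assembly. It had values of 140.4 and 104 in *S100A4*-/- and 18.8 and 35.04 in WT, and a log2 fold change of 2.19 (SE 0.29, limma adjusted p = 4.70e-07). *Fbln2* (ENSMUSG00000064080, chromosome 6, 91212455 to 91272540, plus strand), for the fibrillin- and elastin-binding protein fibulin-2, had values of 95.9 and 78.0 in *S100A4*-/- and 11.5 and 28.5 in WT. Its log2 fold change was also 2.19 but less precise (SE 0.35, limma adjusted p = 1.73e-05), since its WT libraries held 11 and 26 reads and differed by 1.24 on the log2 scale. It was 1.57 without WT replicate 1 and 2.81 without WT replicate 2. Leaving out *S100A4*-/- replicate 1 took *Fbln2*, *Fbln5*, *Fbn2* and *Eln* over the limit of 0.05 in limma's adjusted p and left 4 genes called, *Fbn1*, *Ltbp2*, *Efemp1* and *Fbln1*. Leaving out *S100A4*-/- replicate 2 took *Fbln2* alone and left 7.

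*Eln* (ENSMUSG00000029675, chromosome 5, 134702593 to 134747323, minus strand) encodes tropoelastin, the soluble precursor of the elastic core. Its values were low, 108 and 76.0 in *S100A4*-/- and 24.0 and 30.7 in WT, and did not overlap. The log2 fold change was 1.70 (SE 0.29, limma adjusted p = 5.78e-05). *Lox* (ENSMUSG00000024529, chromosome 18, 52516067 to 52529867, minus strand) encodes lysyl oxidase, the enzyme that oxidizes lysines of elastin and collagen for crosslinking. It was near the limit of detection, with 16 reads in each *S100A4*-/- library and 5 and 3 reads in the WT libraries, or values of 13.7 and 16.2 against 5.22 and 3.28. The groups did not overlap, but the log2 fold change of 1.62 had a 95% interval of 0.21 to 3.04 and did not pass (limma adjusted p = 0.194). From the summed reads, 32 against 8, the ratio was 3.47 with an exact 95% interval of 1.57 to 8.73, which covers counting error only.

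Per length of exon, levels can be compared between genes. On this scale, reads per kilobase of exon scaled to 1000000 in each library, *Mfap2* was the highest of the 10 genes, with 31.9 and 31.6 in *S100A4*-/- and 31.6 and 32.0 in WT. *Fbln1* followed with 19.6 and 17.2 against 4.23 and 5.37, then *Efemp1* with 7.46 and 7.23 against 1.62 and 1.75. *Fbn1* stood at 5.87 and 4.84 against 1.26 and 1.63, and *Ltbp2* at 3.64 and 3.26 against 0.651 and 0.884. The order from *Mfap2* to *Ltbp2* was the same in both groups, although *Efemp1* and *Fbn1* overlapped in WT. *Fbln5*, *Fbln2*, *Fbn2* and *Eln* lay below, between 0.191 and 0.444 in *S100A4*-/- and between 0.0374 and 0.104 in WT. Neighbors in the order of these 4 genes overlapped in both groups, although both *S100A4*-/- values of *Fbln5* lay above both of *Eln*. *Lox* was the lowest, at 0.0627 and 0.0689 in *S100A4*-/- and 0.0227 and 0.0141 in WT.

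**Figure D2:**
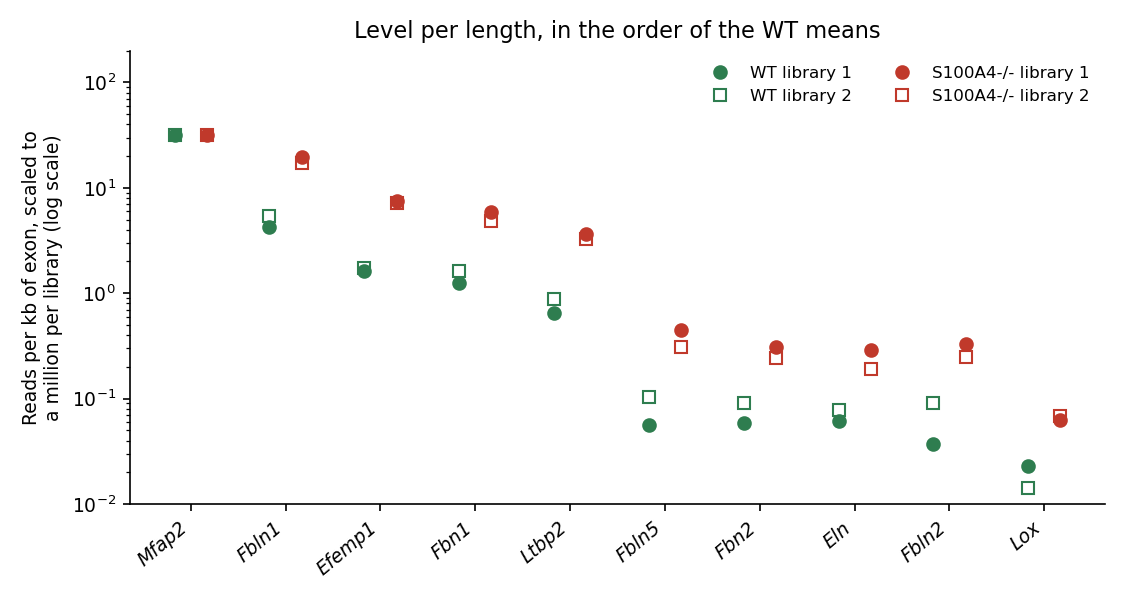
Reads per kilobase of exon, scaled to 1000000 per library (log scale), for the 10 genes in the order of their WT means, with symbols as in the plot of normalized read counts. *Mfap2* stands near 32.0 in all 4 libraries, and the range from *Mfap2* down to *Lox* spans several orders of magnitude.

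The replicates were not equal. WT library 2 had the higher value in 9 of the 10 genes and in all 8 that rose, with a median log2 difference of 0.38 over the 10, while over all genes tested WT library 2 was the higher in 50.8% with a median of 0.003. *Fbln2* differed by 1.24 on this scale, *Fbn1* by 0.40 and *Mfap2* by 0.04, whereas *Lox* was lower in WT library 2. In *S100A4*-/-, library 1 was the higher in 7 of the 10 genes, against 49.9% of all genes tested, with a median log2 difference of 0.12. These within-group differences were smaller than the differences between groups for each of the 8 genes.

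The rest of the pathway was read from a list of 28 genes that encode other microfibril proteins, fibulins, crosslinking and processing enzymes, and ADAMTS family proteins, of which 27 were analysed. *Vcan* and *Mfap4* passed the threshold, both higher, none was lower, and 25 did not pass. At the same threshold 3.65% of all genes tested were called higher, so 2 of 27 is a small count to read as a result. The median log2 fold change of the 27 genes was 0.08. *Vcan* encodes versican, a large proteoglycan that binds fibrillin and the fibulins, and had values of 1054 and 958 in *S100A4*-/- and 219 and 239 in WT (log2 fold change 2.13, SE 0.10, limma adjusted p = 2.32e-19). *Mfap4*, for a fibrinogen-related protein that associates with elastic fibers, had values of 851 and 910.1 in *S100A4*-/- and 387 and 371 in WT. Its log2 fold change was 1.21 (SE 0.09, limma adjusted p = 3.17e-13). Without the fold threshold, at which 5.62% of all genes tested were called higher, 3 further genes passed in limma. These were the latent TGF-β binding protein genes *Ltbp1* (log2 fold change 0.73) and *Ltbp3* (0.29) and the metalloproteinase gene *Adamts10* (0.72).

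The most abundant genes of the remaining lists did not pass. *Loxl1*, the lysyl oxidase family member tied to elastic fiber maintenance, had values of 3261 and 3394 in *S100A4*-/- and 3022 and 3187 in WT (log2 fold change 0.10, limma adjusted p = 0.344). Per length of exon its level was 21.6 and 20.9 in *S100A4*-/- and 19.02 and 19.8 in WT, far above *Lox* in every library. *Efemp2*, which encodes fibulin-4, had a log2 fold change of -0.08 (limma adjusted p = 0.710), and *Adamtsl4*, whose loss is known to displace the lens, -0.02 (limma adjusted p = 0.930). Each fold change in the crosslinking list lay between those of *Loxl2* (-0.05) and *Loxl4* (0.21), and none of its 7 genes passed.

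**Figure D3:**
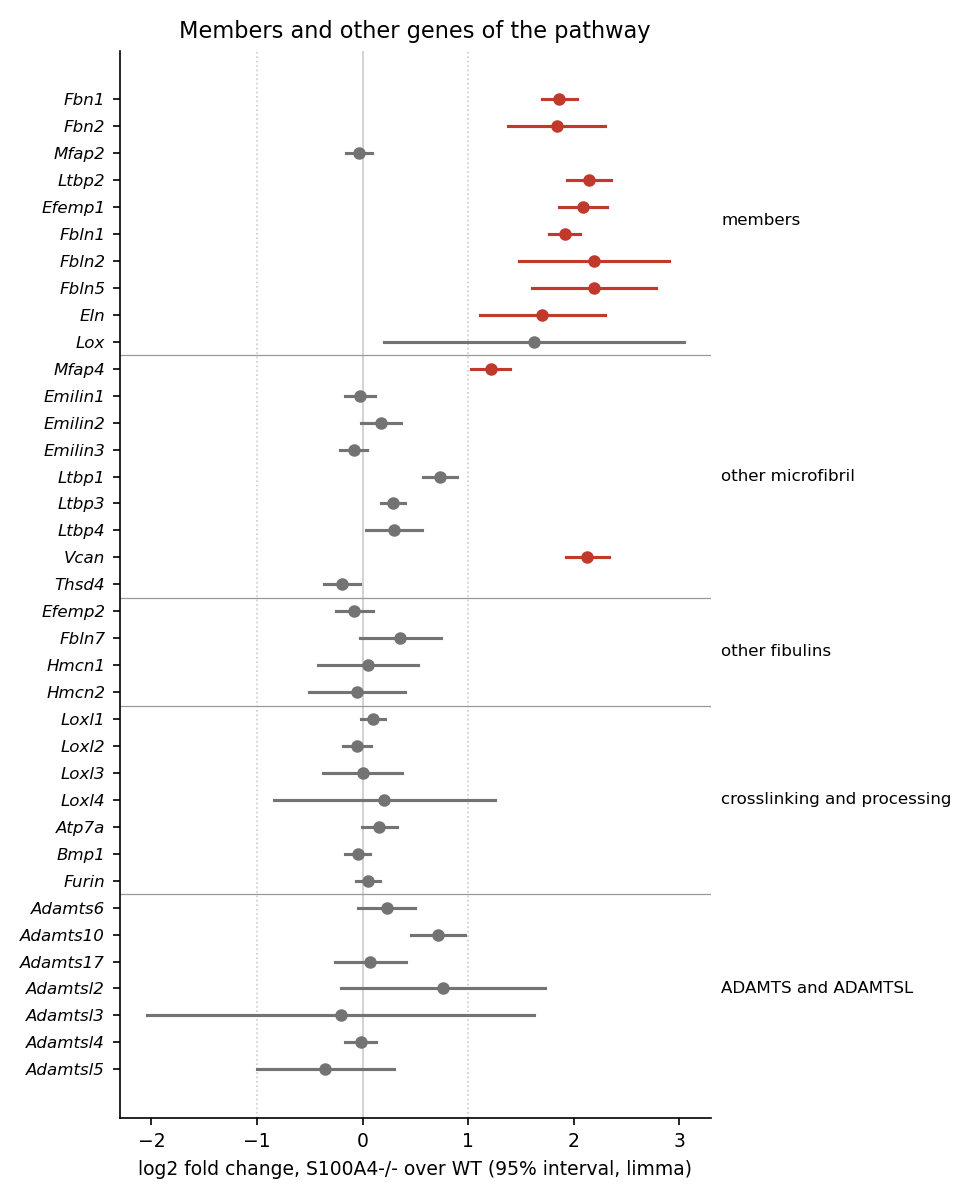
Log2 fold change of *S100A4*-/- over WT with its 95% interval from limma for the 10 genes and for 27 other genes of the pathway, in red where the gene passed the threshold and in grey where it did not; dotted lines mark a 2-fold change. The red points of the 10 genes lie between 1.70 and 2.19, and among the others only *Mfap4* and *Vcan* are red.

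Promoter sequence was examined because most of the genes moved together. RefSeq promoters (GRCm38.p6) matched 7 of the 10 genes, and the 250 bases before the start were searched on both strands for 5 motifs. The GC box GGGCGG was found in 5 of 7 (*Efemp1*, *Fbln2*, *Fbln5*, *Fbn1* and *Ltbp2*), against 32.7% of the 32851 promoters in the table. The windows of *Fbn1* and *Fbln2* lie wholly inside annotated UTRs or exons, so their matches fall in transcribed sequence, and outside such sequence 3 genes held the motif. The SMAD core CAGAC was found in 3 of 7 (*Fbln1*, *Ltbp2* and *Mfap2*), against 42.2%, and the OTX and CRX core TAATCC in *Ltbp2* only, against 6.25%. The TATA box TATAAA was in 0 of 7, against 12.4%, and the AP-1 site TGACTCA in 0 of 7, against 4.46%. The median GC content was 58.8% in the 7 promoters and 52.4% in all promoters. That median is the value of *Fbln2*, whose window, like that of *Fbn1* (59.2%), lies in transcribed sequence. The other 5 windows held 46.4% (*Fbln1*), 51.2% (*Mfap2*), 53.6% (*Efemp1*), 61.6% (*Ltbp2*) and 65.2% (*Fbln5*), on both sides of the median of all promoters. None of these motifs was shared by all 7 genes, and a match to such short letters is a description and not a binding site. The sequences shown are those of the 3 genes that rose with the most reads and a window outside annotated UTRs, and of *Mfap2*, which did not rise. They run 5′ to 3′ along the gene's strand, with motif matches in capitals, which read as the reverse complement where the match is on the other strand. Bases that lie in an annotated exon of the gene were left out.
Fbln1 (chr15:85205699-85205948, plus strand): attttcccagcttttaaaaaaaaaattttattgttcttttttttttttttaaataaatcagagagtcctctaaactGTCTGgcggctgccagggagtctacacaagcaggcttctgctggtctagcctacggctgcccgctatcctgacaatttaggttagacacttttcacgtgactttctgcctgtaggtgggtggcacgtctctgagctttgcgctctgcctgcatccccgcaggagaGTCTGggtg
Ltbp2 (chr12:84876533-84876741, minus strand): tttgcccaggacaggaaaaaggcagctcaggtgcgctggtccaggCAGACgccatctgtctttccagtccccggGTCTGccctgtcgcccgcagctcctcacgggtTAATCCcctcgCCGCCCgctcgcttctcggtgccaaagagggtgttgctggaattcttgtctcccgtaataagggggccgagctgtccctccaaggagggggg
Efemp1 (chr11:28852955-28853203, plus strand): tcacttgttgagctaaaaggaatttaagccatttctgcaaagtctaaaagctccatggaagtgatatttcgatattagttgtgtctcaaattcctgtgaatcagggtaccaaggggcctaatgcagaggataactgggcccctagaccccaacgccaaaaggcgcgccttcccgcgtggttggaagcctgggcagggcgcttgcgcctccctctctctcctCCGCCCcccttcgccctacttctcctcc
Mfap2 (chr4:141010174-141010417, plus strand): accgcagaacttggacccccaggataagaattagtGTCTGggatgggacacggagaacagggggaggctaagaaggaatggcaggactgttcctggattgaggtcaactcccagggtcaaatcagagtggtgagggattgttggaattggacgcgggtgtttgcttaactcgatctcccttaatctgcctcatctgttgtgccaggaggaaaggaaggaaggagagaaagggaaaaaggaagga

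In these windows *Fbln1* held the SMAD core at -174 and -9, counted from the RefSeq start to the first base of the match, and *Mfap2* held it at -215. *Ltbp2* held it at -205 and -176, with the OTX and CRX core at -144 and a GC box at -133, and *Efemp1* held a GC box at -29. *Fbln1*, which rose, and *Mfap2*, which did not, thus both carried the SMAD core and no GC box.

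Among lists of markers of other cells of the eye, most genes of the ciliary epithelium, rod and pigment cell lists were also called higher. Of 7 ciliary epithelium markers, 6 were called higher in *S100A4*-/- and none lower, with a median log2 fold change of 2.18. Their summed value was 7788 and 7259 in *S100A4*-/- and 1834 and 2258 in WT. The most abundant of them was *Optc*, which encodes opticin, a proteoglycan of the vitreous made by the ciliary epithelium, with values of 3609 and 3502 in *S100A4*-/- and 693 and 888 in WT (log2 fold change 2.18, SE 0.08, limma adjusted p = 2.55e-23). *Msx1* alone of this list did not pass (log2 fold change 0.11, limma adjusted p = 0.599). All 7 ciliary markers were higher in WT library 2 than in WT library 1, as were the 8 microfibril and elastic fiber genes that rose. In each other marker list most genes were also higher in WT library 2. Examples were 5 of 7 rod, 4 of 6 pigment cell, 5 of 6 Müller glia and 5 of 6 endothelial markers. The median log2 difference was 0.33 in the ciliary list, 0.31 in the macrophage list and 0.30 in the pigment cell and endothelial lists. It was 0.14 in the rod list, 0.10 in the Müller glia list and at most 0.04 in the fibroblast, mural, lens fiber and lens epithelium lists. Within each library *Ltbp2* stood at 0.378 and 0.375 of *Optc* in *S100A4*-/- and at 0.370 and 0.397 in WT, in normalized read counts. *Fbn1* stood at 0.903 and 0.825 of *Optc* in *S100A4*-/- and at 1.06 and 1.09 in WT. *Fbln1* stood at 1.08 and 1.06 of *Optc* in *S100A4*-/- and at 1.28 and 1.29 in WT. *Efemp1* stood at 0.192 and 0.207 in *S100A4*-/- and at 0.229 and 0.196 in WT. Ratios to markers of the other lists were not computed, so these ratios do not set the ciliary list apart. The part of ciliary epithelium in the values of the microfibril and elastic fiber genes was not tested.

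The lists of other cell types were read in the same way. All 7 rod markers were called higher, with a median log2 fold change of 2.13 and summed values of 6591 and 6335 in *S100A4*-/- against 1529 and 1564 in WT, and *Gnat1*, which encodes rod transducin, was the most abundant. Of 6 pigment cell markers 5 were called higher, with a median log2 fold change of 2.74 over the list and summed values of 2590.5 and 2475 against 802 and 839. *Trpm1*, the most abundant in normalized read counts, was the one below the fold threshold (log2 fold change 0.92). It made up most of the WT sums, with values of 1186 and 1005 in *S100A4*-/- and 593 and 562 in WT. Per length of exon *Dct*, *Pmel* and *Tyrp1* were higher than *Trpm1* in both *S100A4*-/- libraries. Of 6 Müller glia markers 2 were called higher, with a median log2 fold change of 0.34 over the list. These were *Glul*, for glutamine synthetase, with values of 5387 and 5421 in *S100A4*-/- and 1779 and 1923 in WT (log2 fold change 1.55), and *Slc1a3*, for a glutamate transporter, with values of 302 and 222 against 80.4 and 100.7 (log2 fold change 1.51). The study had reported both as higher. The genes that did not pass had log2 fold changes of 0.09 (*Aqp4*), 0.03 (*Dkk3*), 0.08 (*Car14*) and 0.59 (*Kcnj10*). The list summed to 87955 and 89874 against 83386 and 83657, most of it from *Dkk3*. Per length of exon *Dkk3* stood at 511 and 485 in *S100A4*-/- and at 481 and 476 in WT. Whether its reads came from Müller glia was not tested. In the fibroblast list none of the 6 analysed genes passed the threshold, and their median log2 fold change was 0.38. Fibroblasts are a common source of fibrillin and elastin elsewhere, and the list summed to 4726 and 4614 in *S100A4*-/- and to 4713 and 4822 in WT. *Pdgfra*, the most abundant, made up most of this sum, with values of 3543 and 3427 in *S100A4*-/- and 3803 and 3883 in WT. The other 5 analysed genes had log2 fold changes above 0. Of these *Col1a2*, a fibrillar collagen gene, had values of 1103 and 1134 in *S100A4*-/- and 869.8 and 899 in WT, a log2 fold change of 0.34 that passed the adjusted p but not the fold threshold (SE 0.07, limma adjusted p = 0.00161). *Col1a1*, *Col3a1*, *Dcn* and *Mgp* had values between 3.13 and 27.4 in all libraries and log2 fold changes of 0.30, 0.43, 1.36 and 0.87.

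Vessel and immune cell markers were examined last. Of 6 endothelial markers 1, *Kdr*, was called higher, with a median log2 fold change of 0.72 over the list. The list summed to 207 and 215 in *S100A4*-/- against 109 and 138 in WT. *Tek* was the most abundant over all libraries, with 46.2 and 44.6 in *S100A4*-/- and 49.1 and 59.1 in WT. In *S100A4*-/- *Kdr* was higher than *Tek*, with 74.5 and 60.8, and in WT it was lower, with 9.40 and 9.85. Of 4 mural cell markers 1, *Myh11*, was called higher, with a median log2 fold change of 0.43 over the list. The sums of 19119 and 20883 against 19077 and 19581 were mostly *Acta2*. Of 4 macrophage markers 2 were called higher, with sums of 199 and 153 against 63.7 and 70.1. Their median log2 fold change was 1.38, and all 4 lay between 1.22 and 1.51. *Csf1r* was the most abundant in normalized read counts, while per length of exon *C1qa* was higher than *Csf1r* in every library. No analysed marker was at 0 in any library. The part of any of these cell types in the values of the microfibril and elastic fiber genes was not tested.

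**Figure D4:**
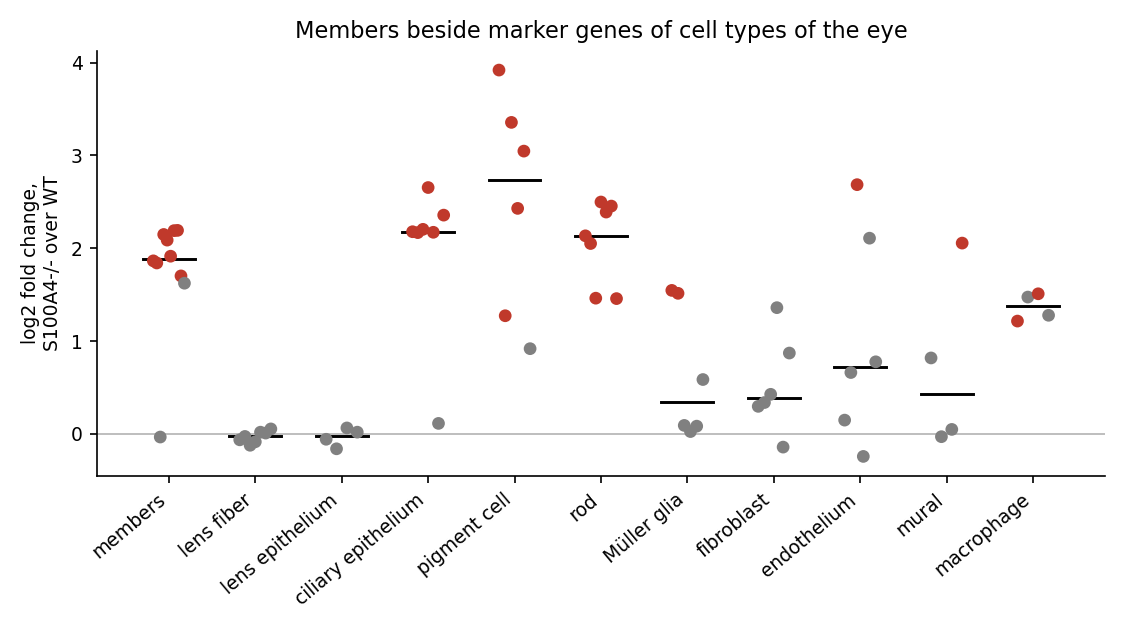
Log2 fold change of *S100A4*-/- over WT for the 10 microfibril and elastic fiber genes and for each marker of 10 cell type lists, with 1 point per gene, red where it passed the threshold and grey where it did not, and a black line at the median of the list. The medians of the microfibril and elastic fiber genes (1.89), the ciliary epithelium (2.18) and the rods (2.13) lie close together, and those of the lens fiber (-0.03) and lens epithelium (-0.02) lists lie near 0.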

How the data were processed

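RNA of P30 lenses was sequenced (stranded mRNA libraries, single-end reads) in 2 *S100A4*-/- and 2 WT pools. Groups and replicate numbers came from the sample labels, and age and pool size from the study's methods. Nothing there says which animals or sexes entered which pool, so p-values measure the spread between pools. The authors' steps were trimming (Trim Galore), mapping to GRCm38 (mm10) with STAR, and counting of single-locus reads per gene with HTSeq. They removed genes with fewer than 10 reads in all libraries and applied DESeq2's normalization. Versions of these tools are not given in the sources used here. The deposited signal values are these counts divided by 1 size factor per library, not divided by gene length. In each library 100% of them equalled a whole number of reads times a constant (within 0.1 read), so reads were recovered by division. At this depth 3 reads were taken as the limit that a count of 0 allows, for counting error only, a value of 2.57 to 3.28. All per-sample columns were used (0 unused).

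limma 3.58.1 (lmFit, and eBayes with a trend) in R 4.3.3 was fitted to log2(value + 1). It covered 14780 genes that reached a value of 10 in some library, and 144 were left out. On the log2(value + 1) scale, changes of low genes come out too small. edgeR 4.0.16 and DESeq2 1.42.0 on the recovered reads were alternatives. The others were pseudocounts of 0.5 and 5, no filter, a filter on a mean value of 50, TMM factors, equal totals, quantile normalization, no variance trend, the replicate number as a block, no fold threshold, limma's treat test and each library left out. Symbols, exons and coordinates came from GENCODE M21 (GRCm38), which matched 14782 of 14924 genes, and lengths are the union of a gene's exons. *Fbn1*, *Fbn2*, *Ltbp2*, *Eln* and *Lox* share bases with an annotated gene on the opposite strand. The strand setting of the counting is not stated, so their reads are uncertain to that extent. The scripts were tested on simulated data. Figures were drawn in Python 3.11.15 with matplotlib 3.10.9.

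The 10 genes and all lists were chosen with earlier results of these data known. The text names all 10, the targeted gene, and other pathway genes past the threshold or most abundant in their list. It also names the most abundant marker of each list. Most abundant means the highest normalized read count over all libraries, not divided by length. *Loxl2*, *Loxl4*, *Ltbp1*, *Adamts10*, *Msx1*, *Best2*, *Otx1*, *Col1a1*, *Col1a2*, *Col3a1*, *Dcn*, *Mgp*, *Fbln7*, *Hmcn1*, *Hmcn2*, *Glul*, *Slc1a3*, *Aqp4*, *Car14*, *Kcnj10*, *Kdr*, *Myh11*, *Mip*, *Foxe3*, *Dct*, *Pmel*, *Tyrp1* and *C1qa* were named after their values were seen. *Mfap5*, *Lum*, *Emcn*, *Des*, *Kcnj8* and *Aif1* were listed but not analysed here.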

Additional observations from a re-analysis of the deposited data

How the results depend on the processing

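The 8 microfibril and elastic fiber genes called higher were the same 8 under both smaller and larger pseudocounts, no filter, the filter on a mean of 50, TMM factors, equal totals, quantile normalization, no fold threshold, DESeq2 and edgeR. limma without the variance trend called 2, *Efemp1* and *Fbln1*. Without the trend, *Fbn1* had an adjusted p of 0.0613 and *Ltbp2* of 0.0563 in limma. limma's treat test called 6, without *Eln* and *Fbln2*. Leaving out 1 library gave 4 to 8 genes: 4 without *S100A4*-/- replicate 1, 7 without *S100A4*-/- replicate 2 and 8 without either WT library, where the lone library was assumed to vary like the other group. The causes were not tested, beyond the fewer samples that leaving out a library leaves.

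Of 149 values of single genes of the 10 under an alternative, 137 kept their direction and side of the threshold, 11 lost the call and 1 turned, *Mfap2* at 0.014 on the log2 scale without *S100A4*-/- replicate 1 (limma adjusted p = 0.953). The 149 values leave out the setting with no fold threshold and the treat test, so the losses of *Eln* and *Fbln2* in the treat test are not counted. Leaving out 1 library gave *Mfap2* -0.080 to 0.014. *Fbln2* varied the most when 1 library was left out, between 1.57 and 2.81. *Lox* passed under no alternative, and the filter on a mean of 50 left it untested.

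Of the other pathway genes, 5 were called with no fold threshold and 1 by the treat test, against 2, and 2 whichever library was left out. Over all genes 550 were called, 539 higher and 11 lower. The filter on a mean of 50 gave 287, no variance trend 181, no fold threshold 1028 (831 higher and 197 lower) and the treat test 171. Leaving out 1 library gave 172 to 559, with 172 without *S100A4*-/- replicate 1 and 216 without replicate 2. The replicate block called 8 of the 10 genes, 2 other pathway genes and 591 genes in all, and changed no call of any of the 10. Same-numbered libraries did not deviate together (r = 0.01 across 14780 genes, which are not independent replicates), so they share only a number.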
